A study of Mus musculus with 4 samples.

Results

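The 44 genes described here act in mitosis, the step in which a cell condenses its replicated chromosomes, attaches them to a spindle and divides. They are the rows of the deposited count table whose gene name is on a list of G2/M cyclins and kinases, kinetochore, spindle and cytokinesis genes that includes Mki67, and all 44 of the 44 names were found among the 22554 genes of the table. The cells were ILC2s sorted from the lungs of BALB/c mice of 6 weeks, cultured overnight with IL-2, IL-7 and IL-33 together with vehicle or with compound 5D. Both groups thus received the same cytokines, the labels name no altered allele in either, and they differed by 5D, an inhibitor of the Orai family, the pores of the plasma membrane that refill emptied calcium stores. There were 2 vehicle and 2 5D libraries of bulk mRNA, with 20096555 to 28697265 counts each, and the labels do not say whether the libraries of a group came from separate mice or cultures, so that p-values measure only the spread between these libraries.

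Resting ILC2s divide little and expand after cytokine stimulation, and IL-33 together with IL-2 and IL-7 is a common way to make them cycle ex vivo. Mitotic genes are transcribed late in the cell cycle. Their promoters are held silent in resting cells by the DREAM complex and are opened in G2 by its MuvB core together with B-MYB and FOXM1, which act through a short element near the start site called the cell cycle homology region (CHR), while the factor NF-Y binds CCAAT boxes just upstream. The proteins are then removed at the end of mitosis by the anaphase-promoting complex (APC/C), a ubiquitin ligase. Ki67, the product of Mki67, coats the surface of mitotic chromosomes and is absent from resting cells, which makes it the usual marker of proliferation, and the study also stained ILC2s for the protein.

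The shared promoter elements are shown first because they were not used to choose the genes. RefSeq promoter windows on the build GRCm38.p6, from 250 bases before to 50 bases after the start site, were at hand for 37 of the 44 genes, all but Tpx2, Ccna2, Kif20a, Incenp, Dlgap5, Cdc25c and Aurkb. The windows of Mki67 (chr7:135716330-135716629, minus strand), Ccnb1 (chr13:100786437-100786736, minus strand), Ccnb2 (chr9:70421505-70421804, minus strand), Cdk1 (chr10:69352863-69353162, minus strand) and Plk1 (chr7:122159185-122159484, plus strand) are printed as the promoters of the Ki67 gene, of both B-type cyclins, of their kinase and of the polo-like kinase that drives mitosis. They are written 5′ to 3′ along the gene, and capitals mark the CHR (TTTGAA) and the CCAAT box, each on either strand.
Mki67: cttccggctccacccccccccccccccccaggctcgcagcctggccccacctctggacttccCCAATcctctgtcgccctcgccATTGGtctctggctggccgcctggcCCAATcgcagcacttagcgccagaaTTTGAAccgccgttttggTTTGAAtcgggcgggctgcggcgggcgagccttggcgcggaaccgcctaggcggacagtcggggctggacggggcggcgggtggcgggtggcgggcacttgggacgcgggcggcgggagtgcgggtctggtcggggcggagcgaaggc
Ccnb1: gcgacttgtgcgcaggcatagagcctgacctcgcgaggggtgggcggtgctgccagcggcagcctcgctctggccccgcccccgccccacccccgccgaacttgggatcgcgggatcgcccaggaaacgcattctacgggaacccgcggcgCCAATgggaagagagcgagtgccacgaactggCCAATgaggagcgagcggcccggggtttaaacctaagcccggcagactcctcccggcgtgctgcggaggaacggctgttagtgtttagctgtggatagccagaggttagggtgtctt
Ccnb2: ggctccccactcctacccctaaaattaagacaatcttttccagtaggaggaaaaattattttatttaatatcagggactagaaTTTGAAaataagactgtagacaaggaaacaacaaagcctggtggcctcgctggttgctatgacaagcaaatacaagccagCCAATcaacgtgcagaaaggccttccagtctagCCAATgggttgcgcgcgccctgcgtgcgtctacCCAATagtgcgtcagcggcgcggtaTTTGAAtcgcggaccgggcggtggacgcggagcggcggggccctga
Cdk1: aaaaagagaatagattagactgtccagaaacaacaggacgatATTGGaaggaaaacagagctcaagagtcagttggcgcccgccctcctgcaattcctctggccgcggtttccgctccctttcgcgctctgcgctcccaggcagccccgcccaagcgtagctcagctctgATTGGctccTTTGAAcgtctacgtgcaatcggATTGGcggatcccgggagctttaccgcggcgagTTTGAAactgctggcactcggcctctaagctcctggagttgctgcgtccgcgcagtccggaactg
Plk1: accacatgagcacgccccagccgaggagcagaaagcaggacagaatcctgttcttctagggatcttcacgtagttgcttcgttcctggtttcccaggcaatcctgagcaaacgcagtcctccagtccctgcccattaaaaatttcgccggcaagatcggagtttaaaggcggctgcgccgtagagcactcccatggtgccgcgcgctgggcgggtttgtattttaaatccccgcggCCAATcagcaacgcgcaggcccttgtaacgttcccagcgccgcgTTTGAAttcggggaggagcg
In Mki67 the CHR matches began 116 and 98 bases before the start site and lay downstream of 3 CCAAT boxes. In Cdk1 they began 71 and 15 bases before the start, in Ccnb2 167 bases before and 4 bases after it, and in Plk1 30 bases after it. The Ccnb1 window held no TTTGAA and 2 CCAAT boxes. The marked motifs did not overlap in these windows.

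Over the 37 genes with a window, 28 (75.7%) held a CHR, against 20.2% of the 27025 genes with a window in the same table. A CCAAT box was found in 28 (75.7%) against 41.1% of all genes, and both motifs in 24 (64.9%) against 8.0%. In 25 of the 37 (67.6%) a CHR began within 60 bases before or 50 bases after the start site, against 6.4% of all genes. A pair of CCAAT boxes on the same strand whose starts were 30 to 35 bases apart was present in 8 (21.6%) against 1.4%. The last 2 windows of distance were chosen after the positions had been seen. Among 38 DNA replication and S phase genes with a window, the CHR was found in 10.5% and the CCAAT box in 63.2%. No TTTGAA was in the windows of Birc5, Bub1, Ccnb1, Cenpe, Cks2, Mad2l1, Nuf2, Nusap1 and Tacc3. These are matches of the exact letters, other spellings of the motifs were not searched, and no binding was measured. The map of motif positions shows the matches gathered around the start site.

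**Figure D1:**
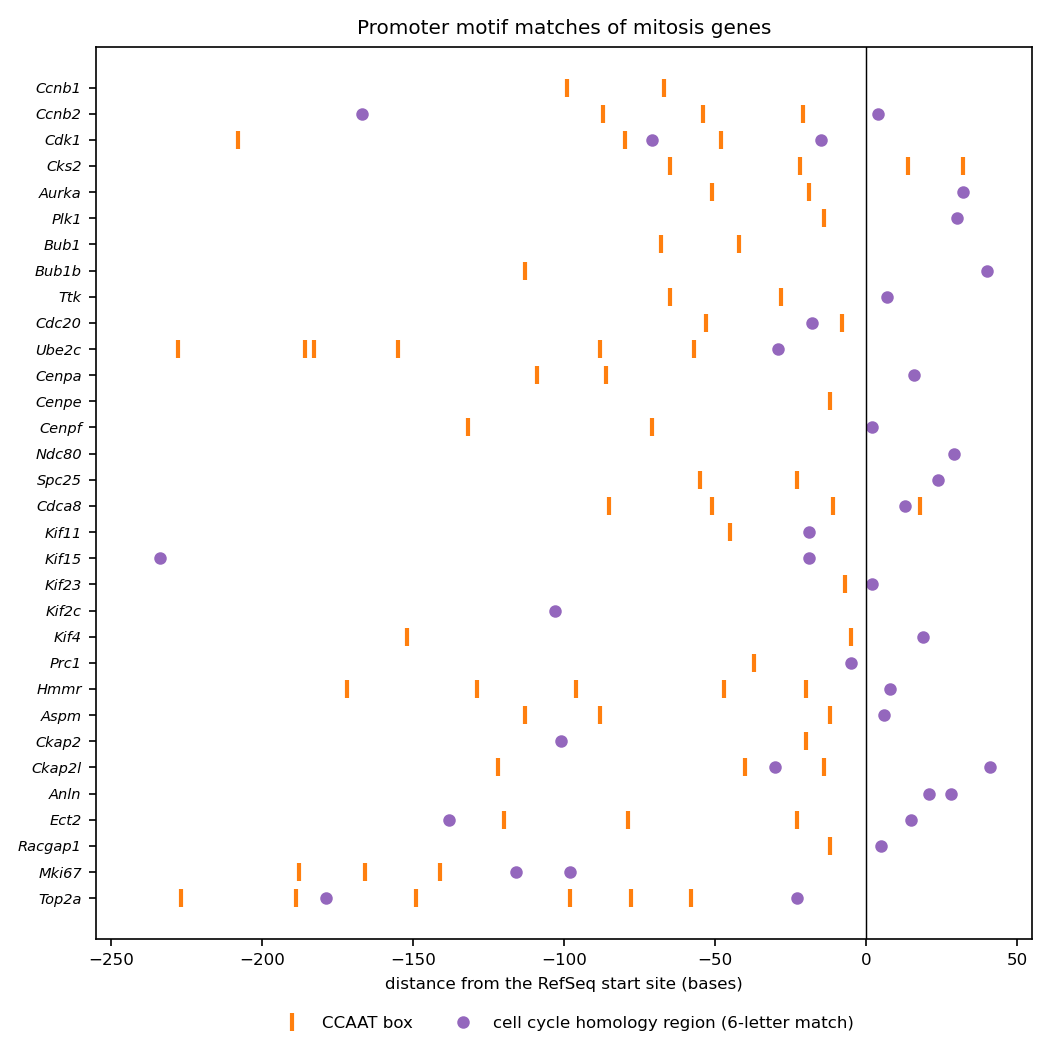
Distance in bases from the RefSeq start site (x axis) of each CHR match (purple dots) and CCAAT match (orange bars) in the promoter windows of mitosis genes (y axis). The 32 of 37 genes with a match of either kind are drawn, with 1 window for a gene that has more, and in 25 genes a CHR lies within 60 bases before or 50 bases after the start.

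The 44 genes were well expressed in both groups. Levels are in normalized CPM, which is CPM after upper-quartile scaling of the libraries, and single genes had between 712 and 17291 counts in a library. Together the 44 genes took 0.870% and 0.872% of the normalized total with vehicle, and with 5D they took 0.890% and 0.904%. Both 5D libraries thus lay above both vehicle libraries in this share. In bulk RNA, a different number of dividing cells and a different amount of these transcripts in each dividing cell cannot be told apart. Divided by the summed exon length of the gene, which ran from 0.69 to 15.43 kb and includes exons of minor isoforms, levels differed more between the genes than between the groups. The highest were Cks2, a small subunit of cyclin-dependent kinases, at 170 ± 11.4 normalized CPM per kb of exon (mean ± SD over all 4 libraries), Ube2c, which hands ubiquitin to the APC/C, at 162 ± 6.02, and Cdc20, the activator of the APC/C, at 156 ± 3.21. The ranges of mean ± SD of these 3 neighbours overlapped. Ccnb2 followed at 145 ± 7.81, and Plk1, at 102 ± 1.3, lay below it by more than the spread of either. Top2a stood at 65.3 ± 2.59 and Mki67 at 49.7 ± 5.16 normalized CPM per kb, the 18th of the 44. The lowest were Aspm at 6.87 ± 0.352 and Cenpf at 6.70 ± 0.155. The plot of levels per length shows the 4 libraries close together at nearly every gene.

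**Figure D2:**
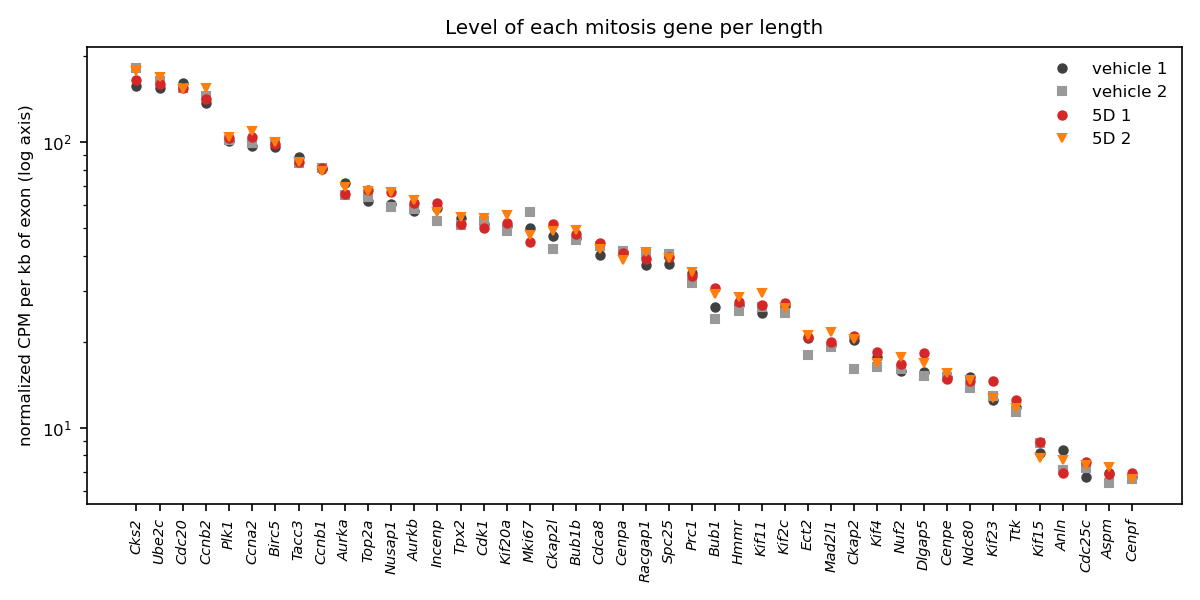
Normalized CPM per kb of exon (y axis, log scale) of the 44 mitosis genes (x axis, ordered by mean), with 1 symbol for each of the 2 vehicle and 2 5D libraries. The order runs from Cks2 at a mean of 170 to Cenpf at 6.70, and the libraries of both groups lie close together at each gene.

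To ask whether blocking Orai channels altered the mitotic transcripts, 5D was compared with vehicle over all 17650 genes that passed the filter on low counts, among them all 44 mitosis genes. No mitosis gene passed an adjusted p-value of 0.05 in edgeR's quasi-likelihood test, with 0 higher (0.0283% of all tested genes) and 0 lower (0.0680% of all tested genes), and the smallest adjusted p-value among them was 0.440. At an unadjusted p-value under 0.05, 6 of the 44 (13.6%) were higher with 5D, against a background of 3.50% of all tested genes, and 1 (2.27%) was lower, against 3.84%. The 6 were Bub1, Nusap1, Dlgap5, Ckap2l, Ccna2 and Top2a, and the lower gene was Mki67. By DESeq2's Wald test the same 6 and Mki67 had an unadjusted p-value under 0.05. Mki67 passed after adjustment in that test (adjusted p = 0.0370, against 0.443 by edgeR). In sign, 35 of the 44 (79.5%) had a positive log2 fold change and 9 a negative one, against 49.6% and 50.4% of all tested genes. Both 5D libraries lay above both vehicle libraries in 17 genes (38.6%, against 18.7% of all tested genes) and below them in 3 (6.82%, against 18.8%). The median log2 fold change was 0.050 over the 44 genes and -0.0020 over all tested genes. All 44 were read in the same 4 libraries, so their number is not a number of independent observations.

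The intervals were narrow. The half-width of the 95% interval of a log2 fold change ran from 0.090 to 0.23, and for all 44 genes the interval lay inside a 1.5-fold difference in either direction. For 38 of them it lay within 0.3 on the log2 scale. The plot of fold changes by role shows Mki67 apart at the lower side and most of the other genes slightly above 0.

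**Figure D3:**
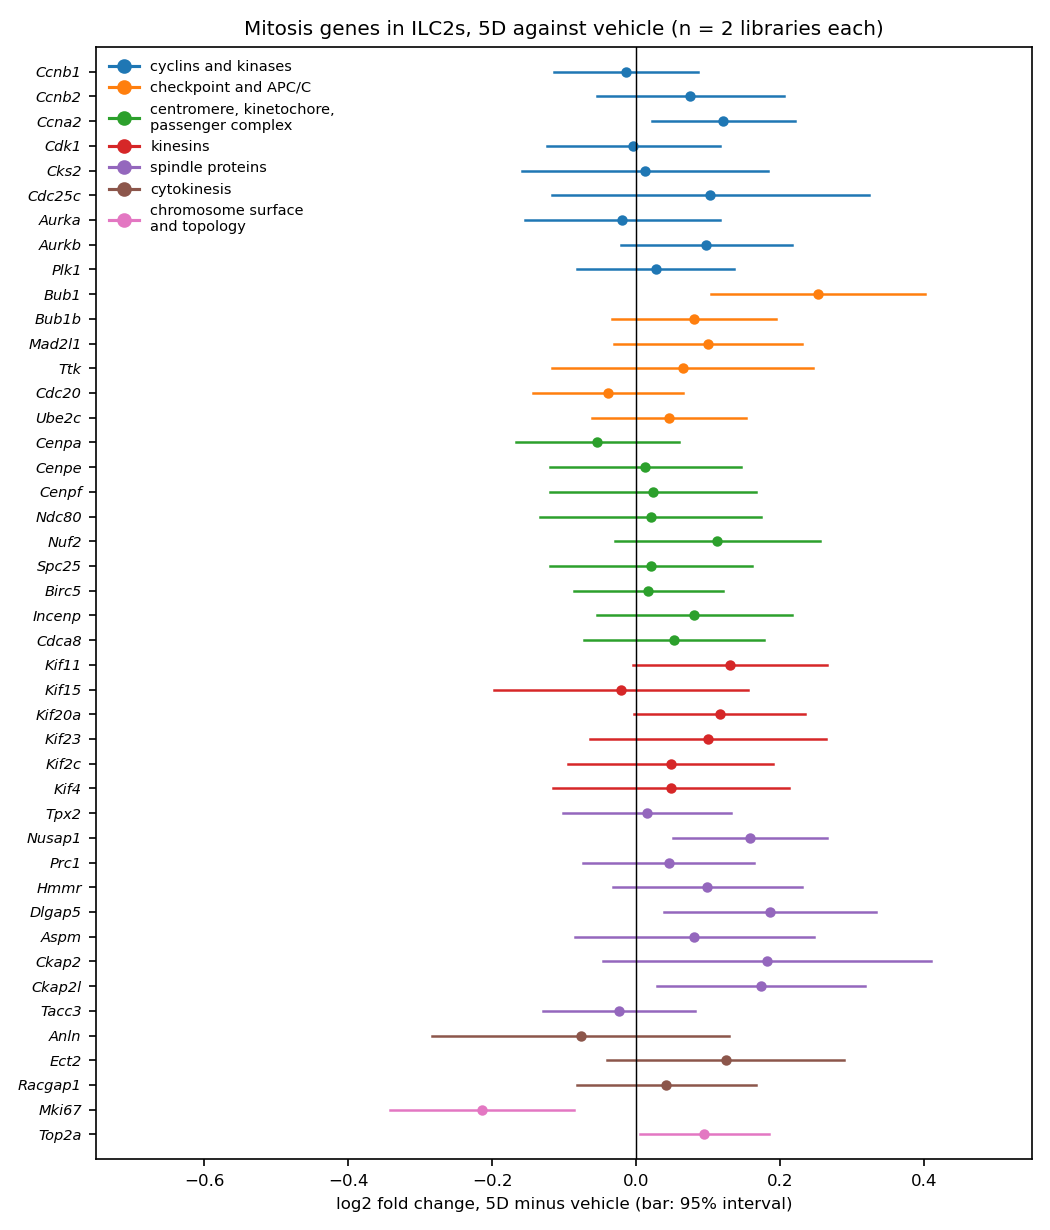
Log2 fold change of 5D minus vehicle (x axis) of each of the 44 mitosis genes (y axis, colored by role), with its 95% interval from edgeR as a bar (n = 2 libraries per group). Mki67, at -0.21, has its interval wholly below 0, and Bub1, at 0.25, has the highest estimate.

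Mki67 (ENSMUSG00000031004.8, chromosome 7 of mm10 from 135689784 to 135716361) was measured at 503 and 571 normalized CPM with vehicle and at 450 and 475 with 5D. Both 5D libraries were below both vehicle libraries, and the vehicle libraries differed from each other by more than the nearest vehicle and 5D libraries did. The log2 fold change was -0.21 (standard error (SE) 0.058, 95% interval from -0.34 to -0.086, edgeR adjusted p = 0.443), which is 13.8% less. Without vehicle replicate 2 it was -0.12, and without vehicle replicate 1 it was -0.31, each time with 1 vehicle library left. Top2a (chromosome 11 from 98992943 to 99024189), the topoisomerase that untangles sister chromatids and a second common marker of cycling cells, was measured at 561 and 578 normalized CPM with vehicle and at 611 and 605 with 5D. Here both 5D libraries were above both vehicle libraries, with a log2 fold change of 0.094 (SE 0.041, edgeR adjusted p = 0.645). The ratio of Mki67 to Top2a in the same library, which does not depend on the scaling of the libraries, was 0.897 and 0.988 with vehicle and 0.737 and 0.785 with 5D. Against the geometric mean of the other 43 genes, Mki67 stood at 3.10 and 3.59 with vehicle and at 2.69 and 2.82 with 5D. Both ratios were lower in each 5D library than in each vehicle library, but an exact permutation test of 2 against 2 libraries cannot go below p = 0.333, and the difference between Mki67 and the other genes was not tested further. Without Mki67, the sum of the other 43 genes was 8195 and 8151 normalized CPM with vehicle and 8451 and 8563 with 5D.

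**Figure D4:**
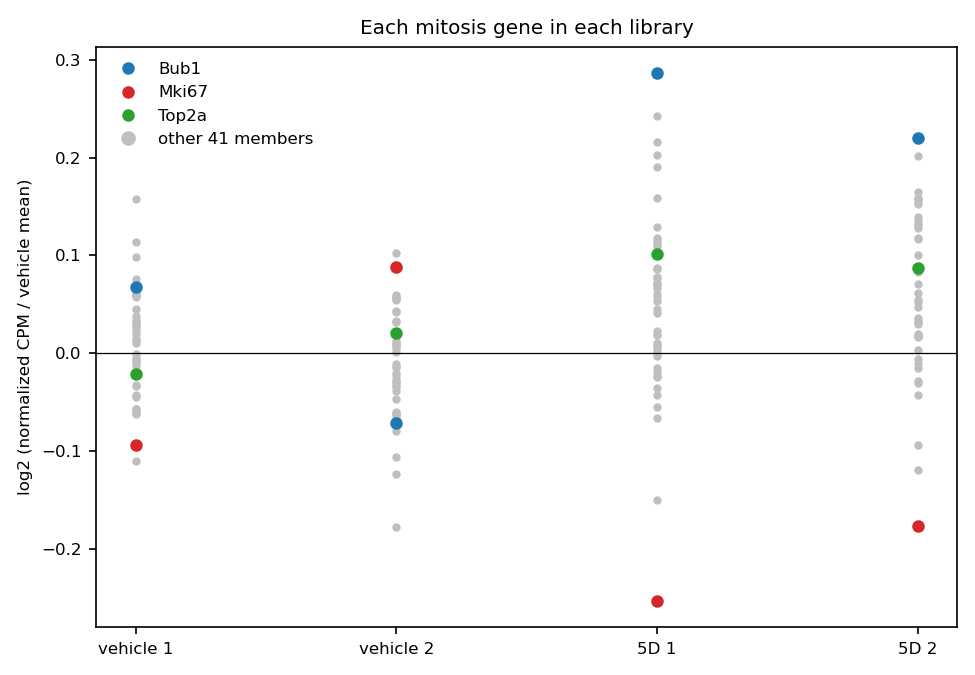
Log2 of the normalized CPM of each mitosis gene relative to its vehicle mean (y axis) in each of the 4 libraries (x axis). Mki67 (red) is the lowest of the 44 genes in both 5D libraries, Bub1 (blue) the highest, and Top2a (green) lies slightly above 0 in both.

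Among the cyclins and kinases, which start mitosis, 6 of 9 genes (66.7%) had a positive log2 fold change, against 49.6% of all tested genes. Their median was 0.027. The role groups are small, and the differences between them were not tested. Ccnb1 (chromosome 13 from 100778650 to 100786570), the cyclin whose kinase complex triggers entry into mitosis, had 339 and 342 normalized CPM with vehicle and 341 and 333 with 5D. These values overlapped, and the log2 fold change was -0.014 with a 95% interval from -0.11 to 0.086. Ccnb2, the other B-type cyclin, had 210 and 223 with vehicle and 217 and 238 with 5D, again with overlap. Ccna2 (chromosome 3 from 36564865 to 36572150), the cyclin of S and G2 phase, had 394 and 404 with vehicle and 424 and 444 with 5D, so that the groups did not overlap. Its log2 fold change was 0.12 (SE 0.046, edgeR adjusted p = 0.578). Cdk1, the kinase that these cyclins activate, had 254 and 260 with vehicle and 246 and 267 with 5D, and Plk1 had 222 and 224 against 226 and 228, a log2 fold change of 0.027 (95% interval from -0.082 to 0.14). Cks2 had 109 and 126 with vehicle and 114 and 123 with 5D. The remaining 3, Aurka, Aurkb and Cdc25c, which are the aurora kinases of spindle poles and centromeres and the phosphatase that activates Cdk1, had log2 fold changes of -0.019, 0.097 and 0.10.

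In the group of spindle checkpoint kinases and APC/C partners, 5 of 6 genes (83.3%, against 49.6% of all tested genes) had a positive log2 fold change. The median was 0.073. Bub1 (chromosome 2 from 127801122 to 127831865), a checkpoint kinase that sits on kinetochores, had 115 and 105 normalized CPM with vehicle and 134 and 128 with 5D. Both 5D libraries were above both vehicle libraries, and the log2 fold change of 0.25 (SE 0.068, 95% interval from 0.10 to 0.40, edgeR adjusted p = 0.440) was the highest of the 44. Without vehicle replicate 1 it was 0.32, and without vehicle replicate 2 it was 0.18, each time with 1 vehicle library left. Its partners in the checkpoint, Bub1b, Mad2l1 and Ttk, had log2 fold changes of 0.080, 0.10 and 0.065. Cdc20 had 300 and 290 with vehicle and 288 and 287 with 5D, a log2 fold change of -0.039, and was one of the 3 genes with both 5D libraries below both vehicle libraries. Ube2c had 402 and 427 against 417 and 438, with overlap.

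Of the 9 genes of centromere, kinetochore and chromosomal passenger complex, 8 (88.9%, against 49.6% of all tested genes) had a positive log2 fold change. The median of the 9 was 0.020. Cenpa, the histone variant that marks centromeres, was the exception at 241 and 243 normalized CPM with vehicle and 239 and 227 with 5D, a log2 fold change of -0.054 (95% interval from -0.17 to 0.059). The values of Cenpa in the 5D libraries were both below those with vehicle, by little in 5D replicate 1. The microtubule-binding kinetochore genes Ndc80, Nuf2 and Spc25 had log2 fold changes of 0.020, 0.11 and 0.020. Birc5, Incenp and Cdca8, which encode partners of aurora B in the passenger complex, had 0.017, 0.081 and 0.052. Cenpe, a kinesin of the kinetochore, and Cenpf had 0.012 and 0.023.

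The 6 kinesins had a median log2 fold change of 0.075, and 5 (83.3%) were positive, against 49.6% of all tested genes. Kif11, the motor that pushes spindle poles apart, had 188 and 197 normalized CPM with vehicle and 200 and 222 with 5D, without overlap, and a log2 fold change of 0.13 (95% interval from -0.0050 to 0.27, edgeR adjusted p = 0.689). Kif20a, a motor of the late spindle, had 0.12, and Kif23, Kif2c, Kif4 and Kif15 had 0.10, 0.048, 0.049 and -0.021.

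The 9 other spindle proteins had the highest median of the role groups, at 0.099. In sign, 8 (88.9%) were positive, against 49.6% of all tested genes. At an unadjusted p-value under 0.05 in edgeR, 3 of the 9 (33.3%) were higher and 0 lower, against 3.50% and 3.84% of all tested genes. Nusap1 (chromosome 2 from 119618298 to 119651244), which bundles spindle microtubules, had 247 and 240 normalized CPM with vehicle and 272 and 272 with 5D. Its log2 fold change was 0.16 (SE 0.049, edgeR adjusted p = 0.522). Dlgap5, a spindle assembly factor, had 107 and 103 with vehicle and 124 and 114 with 5D, a log2 fold change of 0.19 (SE 0.067, edgeR adjusted p = 0.566). Ckap2l, a spindle and centrosome protein, had 146 and 133 with vehicle and 162 and 153 with 5D, at 0.17 (SE 0.066, edgeR adjusted p = 0.583). In these 3 genes both 5D libraries were above both vehicle libraries. Ckap2 had 65.2 and 51.7 with vehicle and 67.2 and 65.5 with 5D, a log2 fold change of 0.18 that was 0.024 without vehicle replicate 2, its lowest library, and 0.36 without vehicle replicate 1. Tpx2, which activates aurora A on the spindle, had 253 and 240 with vehicle and 242 and 255 with 5D, with overlap and a log2 fold change of 0.015. The other 4, Prc1, Hmmr, Aspm and Tacc3, lay between -0.024 and 0.099.

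Of the cytokinesis genes, Anln, which organizes the contractile ring, had 75.7 and 64.2 normalized CPM with vehicle and 63.0 and 69.7 with 5D. The groups overlapped, and the log2 fold change was -0.077 (95% interval from -0.28 to 0.13). Ect2 and Racgap1, which together activate the small GTPase RhoA at the division plane, had 0.12 and 0.042.

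Part of the counts may be shared with other genes. In 14 of the 44 genes a transcript had a stretch of at least 150 nt at 95% identity in a transcript of another gene, among them 5 genes for Ccnb1 and 3 for Cks2, and Gm44521 for Mki67. For Cenpf and Ckap2 there were 27 and 20 such genes. In 13 genes an exon overlapped an exon of another gene, which was antisense in all but Top2a, and the use of strand in counting is not given in the sources used here. The values of these genes are uncertain to the extent that such reads were split.

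The other genes of the mitotic program were listed by function, and 0 of them passed an adjusted p-value of 0.05. The counts that follow stand beside 3.50% of all tested genes higher and 3.84% lower at an unadjusted p-value under 0.05, and 49.6% positive in sign. Of 23 transcription regulators of the program, 1 was higher (Rb1, 4.35%) and 0 lower at an unadjusted p-value under 0.05, and 10 (43.5%) were positive in sign. Foxm1, which drives G2/M transcription, had 120 and 116 normalized CPM with vehicle and 110 and 114 with 5D, a log2 fold change of -0.076 (edgeR adjusted p = 0.861). Mybl2, the gene of B-MYB, had 111 and 110 against 115 and 104, with overlap. Rb1, the brake on E2F factors, had 214 and 185 with vehicle and 219 and 234 with 5D.

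Of 21 condensin, cohesin and separase genes, 3 (14.3%) were higher and 1 (4.76%) lower at an unadjusted p-value under 0.05, against 3.50% and 3.84% of all tested genes. In sign, 16 of the 21 (76.2%) were positive, against 49.6%. Ncapd3, a subunit of condensin II, was higher in normalized CPM in both 5D libraries than in both vehicle libraries. The log2 fold change of Ncapd3 was 0.36 (SE 0.075, edgeR adjusted p = 0.199). Stag2, a cohesin subunit, had 66.8 and 63.4 normalized CPM with vehicle and 80.7 and 87.3 with 5D. Its log2 fold change was 0.37 (SE 0.077, edgeR adjusted p = 0.199). Both lay outside the range of the 44 mitosis genes. Ncapg of condensin I had a log2 fold change of 0.19, and Pds5b, a cohesin regulator, had -0.17.

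At the same unadjusted threshold, and against the same 3.50% and 3.84% of all tested genes, of 38 further spindle and centrosome genes 4 (10.5%) were higher and 0 lower (Pbk, Cep55, Sass6 and Nde1, with log2 fold changes of 0.20, 0.19, 0.28 and 0.18), and 30 (78.9%) were positive, against 49.6%. Of 37 further kinetochore genes 1 (2.70%) was higher (Cenps, with a log2 fold change of 0.28), 0 were lower and 24 (64.9%) were positive. Of 21 further APC/C and checkpoint genes 2 (9.52%) were higher (Anapc4 and Cdc23, at 0.18 and 0.17), 0 were lower and 10 (47.6%) were positive. An exon of Cdc23 overlaps Kif20a on the other strand. Of 13 further genes of mitotic entry, 11 were in the table and tested, with 0 higher, 1 (9.09%) lower (Cks1b, at -0.12) and 6 (54.5%) positive. Among 25 G1 cyclins, kinases and inhibitors 2 (8.0%) were higher and 1 (4.0%) lower. Ccng1, a target of p53, had a log2 fold change of 0.22 (edgeR adjusted p = 0.422), Cdk6, a G1 kinase, had -0.13, and Cdkn2b, an inhibitor of G1 kinases, had only 11 and 9 counts with vehicle and 50 and 26 with 5D. Cdkn1a, the p21 inhibitor that is induced on cell cycle arrest, had 289 and 293 normalized CPM with vehicle and 301 and 303 with 5D, a log2 fold change of 0.053. The 47 genes of DNA replication and S phase had a median of 0.047 with 38 (80.9%) positive, 2 (4.26%) higher (Uhrf1 and Dscc1) and 0 lower, side by side with 0.050 and 35 of 44 in the mitosis genes. The plot by list shows the medians of all 9 lists close to 0.

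**Figure D5:**
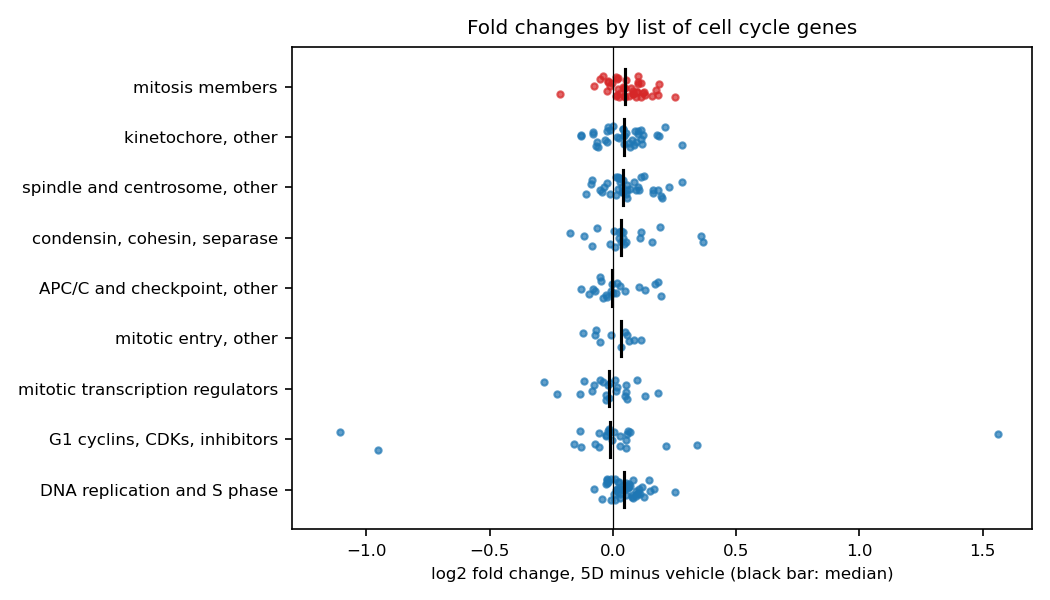
Log2 fold change of 5D minus vehicle (x axis) of each tested gene in the mitosis genes (red) and in 8 further lists of cell cycle genes (blue), with the median of each list as a black bar. The medians run from -0.017 to 0.050.

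The cells carried the markers of their label. The 11 listed ILC2 markers, among them Gata3, Il1rl1 and Il7r, were all present and summed to 8781 to 8819 normalized CPM with vehicle and 8413 to 8751 with 5D, of which Il5 gave a mean of 4597. At an unadjusted p-value under 0.05, 1 of the 11 (9.09%) was higher with 5D, against 3.50% of all tested genes, and 3 (27.3%) were lower, against 3.84%. Of 8 T-cell markers 7 were in the table with Cd4 at 0 in all libraries, and they summed to 190 to 206, of which Trbc2 gave a mean of 172. Sums were at most 73.0 for granulocyte and mast cell genes, 40.2 for macrophage and dendritic cell genes, 28.3 for epithelium, 24.9 for endothelium and stroma, 19.4 for B cells, 8.99 for erythroid cells and 1.81 for NK cells and ILC1s. Their part in the values above was not tested.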

How the data were processed

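Bulk mRNA of 4 libraries was used, with the groups taken from the sample titles. Per the labels and the methods of the study, cDNA was made with a low-input kit (10 ng of RNA per the labels, a picogram amount per the methods), and reads were aligned with STAR 2.6.1 to mm10 and quantified against GENCODE M21 in Partek. The table that the authors deposited holds unnormalized estimated counts of each gene, and only 44.7% to 46.8% of the values above 0 in a library were whole, so they were rounded. The test had been planned for counts and was kept.

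Normalization was by upper quartile. The low-count filter of the study (an average of at least 1 and a sum of at least 10 normalized counts) kept 17650 genes and dropped 4904. 5D was tested against vehicle with edgeR 4.0.16 in R 4.3.3 (quasi-likelihood test, two-sided, no covariates, Benjamini-Hochberg adjustment over all tested genes) in place of Partek's Gene Set Analysis. The SE was obtained from the log2 fold change and F, dividing the size of the former by the root of the latter, and 95% intervals use the t quantile of the same fit. The biological coefficient of variation was 8.51%. Replicates were not duplicates within counting error (chi-square per degree of freedom 6.50 and 7.18), so all 4 were counted. Alternatives were TMM, DESeq2 size factors, total counts, DESeq2 1.42.0, limma-voom (limma 3.58.1), 2 other filters, the replicate number as a block, and leaving out each library. Near-identical transcripts were searched with BLAST 2.17.0. The code was tested on simulated data. Figures were drawn with matplotlib 3.10.9.

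The members and lists were chosen with earlier results of these data known. Genes were described by library if they were Mki67, had an unadjusted p-value under 0.05, were among the 3 highest or 3 lowest fold changes or the 5 highest levels per kb, or came first in their role. In the other lists, up to 4 genes at an unadjusted p-value under 0.05 were named, plus Foxm1, Mybl2 and Cdkn1a. Values of Cdk1 by library and of the remaining members were added as description. Coordinates are those of GENCODE M21 on mm10, and 22080 of 22554 symbols matched it.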

Additional observations from a re-analysis of the deposited data

How the results depend on the processing

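Among 300 values recomputed over 12 alternatives, 272 were kept, 18 moved, 3 came past the threshold and 7 turned in sign. A fold change of a gene was kept if its sign and side of the threshold stayed. A count of genes was kept if equal to or within 1.5-fold of the main one, and otherwise moved. The median log2 fold change of the mitosis genes was kept if it shifted by less than 0.014, the spread of the library medians. With DESeq2's Wald test 1 mitosis gene was lower at an adjusted p-value under 0.05, which was Mki67 (log2 fold change -0.21, adjusted p = 0.0370), and 16 and 42 of all tested genes were higher and lower, against 5 and 12 with edgeR. These counts were 9 and 23 with limma-voom, 11 and 35 without a filter, and 9 and 32 with the replicate number as a block. Whether the replicate numbers pair the samples is not settled. The correlation of same-numbered deviations was 0.061 over 8737 genes, which cannot decide it with 2 libraries per group. The block called 0 mitosis genes, and Mki67 had a log2 fold change of -0.21 with it (edgeR adjusted p = 0.0828). Leaving out a library, which leaves 1 library assumed to vary like the other group, gave 0 to 1 mitosis genes higher and 0 to 1 lower after adjustment, the 1 and 1 being Bub1 and Mki67 without vehicle replicate 1. It gave 3 to 8 higher at an unadjusted p-value, a median log2 fold change from 0.041 to 0.073, Mki67 from -0.31 to -0.12, and 3 to 73 higher and 12 to 107 lower genes overall. The cause of these shifts was not tested. Log2 fold changes of single genes were followed for the 18 that the naming rule selected. Of these, 5 turned in sign: Cks2 ranged from -0.095 to 0.118, Ube2c from -0.000203 to 0.088, Anln from -0.192 to 0.044, Tpx2 from -0.025 to 0.0501 and Ccnb1 from -0.0348 to 0.00133. This was without vehicle replicate 1 for Cks2, Ube2c and Anln, without vehicle replicate 2 for Tpx2, and without 5D replicate 2 for Cks2 (-0.044), Tpx2 and Ccnb1. Over all 44 mitosis genes 32 to 36 were positive, with 32 without vehicle replicate 1 and without 5D replicate 2, so that others turned too. The median of all tested genes stayed between -0.010 and 0.0070 and that of the mitosis genes above 0 in every setting. With 2 libraries per group, the depth was ample for each gene and the number of libraries limits the precision.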
